A study of Mus musculus with 6 samples.

Results

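The DNA replication and S phase genes are 42 genes chosen by name from the 35275 genes of the deposited expression table. They cover origin licensing, helicase activation, the replicative polymerases, the sliding clamp and its loader, nucleotide supply, chromatin assembly behind the fork and the regulators of S phase entry. All 42 were found, each as 1 entry, and 41 entered the tests. The exception was Fen1, whose mean fell short of the minimum of 1 FPKM, a unit of fragments scaled by gene length and library size.

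Expression was measured by RNA-seq in B cells from the spleens of C57BL/6 mice aged 6 to 8 weeks, on day 8 after an injection of SRBC, sheep erythrocytes that serve as an antigen needing T cell help. The 3 wild-type (WT) libraries and the 3 libraries from mice with an altered CD40 ligand, CD40LΔ5, share strain, antigen, day and the magnetic pan-B isolation, and differ in genotype by their labels. CD40 ligand is the T cell protein that engages CD40 on B cells, and the comparison asks how B cell expression differs when it is altered. Nothing in the labels ties a library to an animal of its own, so p-values measure the spread between these libraries, which may be technical.

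A chromosome is copied once per cycle. The MCM2-7 complex is loaded onto origins by ORC, CDC6 and CDT1 in G1, and is switched on in S phase by CDC45 and the GINS complex. Genes of this machinery are known E2F targets and are transcribed around S phase entry. In the spleen after immunization, dividing B cells are found among others in germinal centres and among plasmablasts, while most splenic B cells rest.

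The group membership of the libraries differs between 2 deposited sources. The authors' deposited table of group means has a MUT column that equals the mean of WT replicates 1 and 2 and CD40LΔ5 replicate 2, and a WT column that equals the mean of WT replicate 3 and CD40LΔ5 replicates 1 and 3. Both groupings are therefore given. Libraries carry the names of their labels throughout, and "averaged as MUT" and "averaged as WT" stand for the sets of that table. Which source is right was not settled here, and no library was assigned to a group from its values. Cd40lg, the altered gene, measured 0.533, 0.428 and 0.203 FPKM by replicate in WT. In CD40LΔ5 the values were 0.118, 0.483 and 0.144 FPKM. The label groups overlapped, while all 3 libraries averaged as MUT were above those averaged as WT. Every value lay under the minimum of 1 FPKM, so Cd40lg was not tested and its split rests on low values. Cd40lg is known as a T cell gene, and the summed T cell markers given at the end had the same split. Recovered reads on genes ranged from 24320080 to 27866611 per library, and immunoglobulin genes took 1.99% to 7.95% of them. B cell markers were abundant in every library, with Cd79a, part of the B cell receptor, at 1510 to 1999 FPKM.

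Whatever the grouping, the replication genes separated the libraries in the same way. WT replicate 1 and CD40LΔ5 replicate 2 were the lowest pair for 30 of the 41 tested genes, a count that was not made over all genes. Relative to each gene's own mean on the log2(FPKM + 1) scale, the median over the 41 genes was -0.25 in WT replicate 1 and -0.27 in CD40LΔ5 replicate 2. It was 0.14 in WT replicate 2, 0.19 in WT replicate 3, 0.20 in CD40LΔ5 replicate 1 and 0.01 in CD40LΔ5 replicate 3. Over all 11252 tested genes the corresponding medians lay between -0.05 and 0.05. Each label thus held libraries with high and with low levels. The highest library of a replication gene exceeded its lowest by a median of 1.62 times, against 1.35 times over 11210 tested genes above 0 in every library. Across the 6 libraries each gene was correlated with the mean of the other replication genes at a median Pearson r of 0.87, and 16 of 41 exceeded 0.9. Against the mean of all 41, 17 of the replication genes exceeded 0.9, and 2.34% of all tested genes, which include them. All 18 mitosis genes and 8 of 9 germinal centre markers of the lists below did so as well. The likeness was therefore not particular to the replication genes. These correlations rest on 6 libraries and are given as a description.

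**Figure D1:**
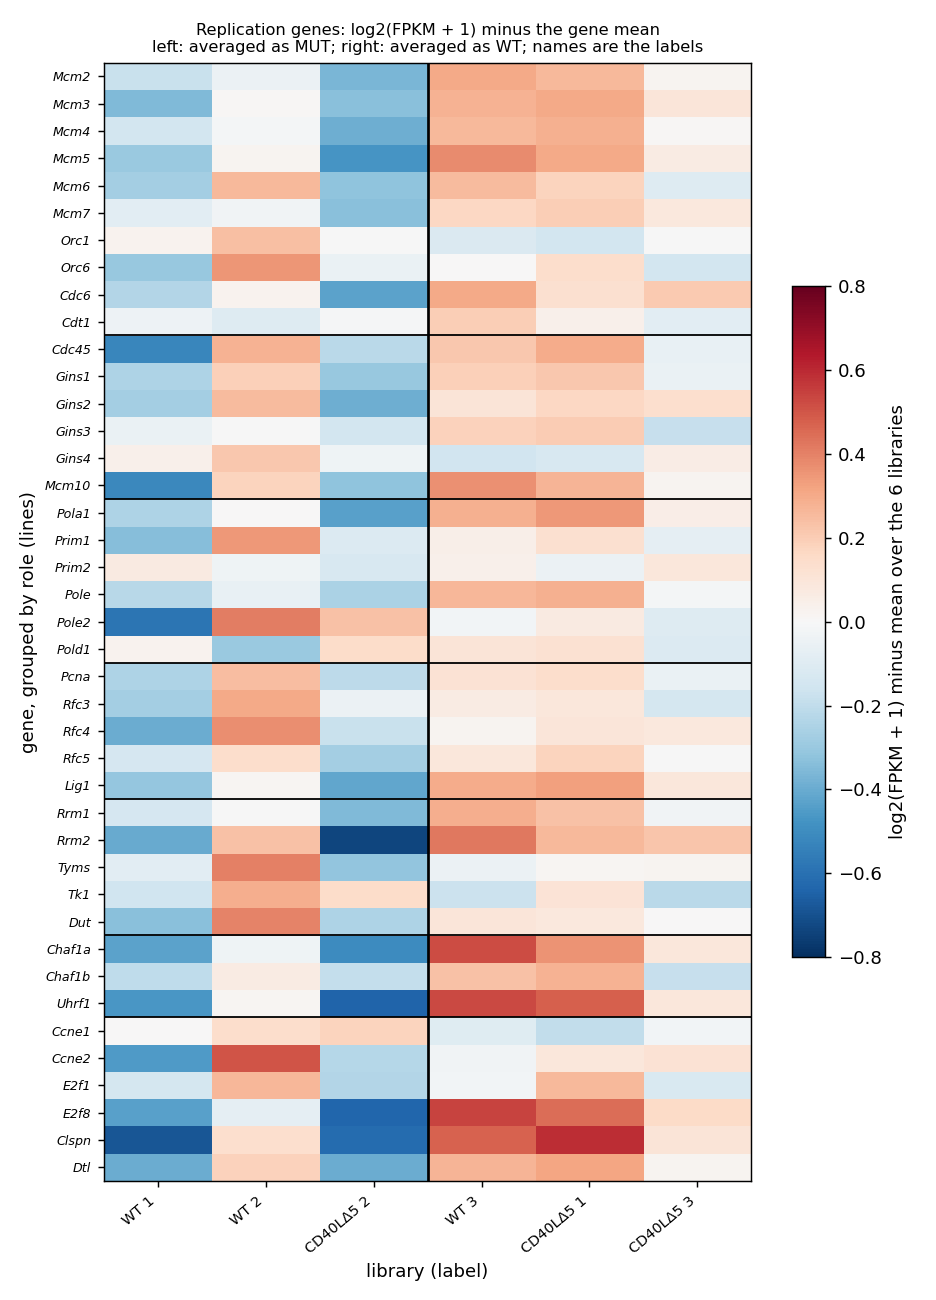
Heat map of the 41 tested replication genes (rows, grouped by role) in the 6 libraries (columns, named by label), as log2(FPKM + 1) minus the gene's mean. WT replicate 1 and CD40LΔ5 replicate 2 are below the mean for 36 and 37 of 41 genes, and WT replicate 2 is above it for most genes although it stands in the same set of the table of means. These counts were not made over all genes.

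The promoters of these genes were examined because E2F factors are known to act there. RefSeq windows on GRCm38.p6, from 250 bases before to 50 bases after a start site, were found for 35 of the 42 genes (40 windows). An E2F motif, spelled TTTCCCGC, TTTCGCGC, TTTGCCGC or TTTGGCGC on either strand, was present in 16 of 40 windows (40%), against 2.265% of all 32851 windows. Matches on opposite strands can overlap in palindromic stretches. The CCAAT box (CCAAT) was present in 57.5% of the replication gene windows and 37.4% of all windows. The CHR element (TTTGAA or TTCGAA), known from genes of late cell cycle phases, was present in 17.5% and 19.2%. A match describes letters and does not show that a factor binds.

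The stretches below are those with an E2F match upstream of a RefSeq start site that lie in no annotated exon. Those of Uhrf1 and Cdc6 lie inside the genes as listed, which begin at 56303321 and 98907801. The Uhrf1 window that spans the listed start held no E2F match. They run 5′ to 3′ on the gene's strand, with matches in capitals. The first 4 belong to genes that were lower, without overlap, in the libraries averaged as MUT, while Mcm6 and Dtl overlapped. Stretches left out for lying in an exon belong to Mcm7, lower without overlap, Orc1, higher without overlap, and Rfc3 and Gins3, which overlapped. A relation between matches and differences was not tested.
Mcm5 (chr8:75109331-75109392, plus strand): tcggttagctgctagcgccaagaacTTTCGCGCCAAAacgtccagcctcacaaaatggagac
Cdc6 (chr11:98907988-98908045, plus strand): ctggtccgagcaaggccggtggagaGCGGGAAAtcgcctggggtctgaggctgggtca
Uhrf1 (chr17:56304103-56304160, plus strand): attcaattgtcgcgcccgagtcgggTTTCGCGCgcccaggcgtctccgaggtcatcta
Pola1 (chrX:93632261-93632318, minus strand): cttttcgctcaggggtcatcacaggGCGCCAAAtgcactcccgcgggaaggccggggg
Mcm6 (chr1:128359720-128359840, minus strand): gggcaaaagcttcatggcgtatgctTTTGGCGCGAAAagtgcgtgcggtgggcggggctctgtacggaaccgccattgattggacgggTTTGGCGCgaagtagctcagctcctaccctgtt
Dtl (chr1:191575545-191575577, minus strand): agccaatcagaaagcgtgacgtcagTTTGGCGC
Mcm6 holds 3 matches, 2 of them overlapping, and the overlapping pair of Mcm5 begins 153 bases upstream of its start site.

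By the labels, no replication gene passed the test between CD40LΔ5 and WT. Differences in log2(FPKM + 1), CD40LΔ5 minus WT, ranged from -0.18 for Tyms to 0.13 for Pole2, with a median of -0.05 over 41 genes and 0.01 over all tested genes. Mcm5 measured 37.0 ± 9.82 FPKM in CD40LΔ5 and 38.6 ± 9.23 FPKM in WT (SD, n = 3), a log2 difference of -0.07 ± 0.24 (SE). For Pcna the difference was -0.08 ± 0.16, for Uhrf1 -0.05 ± 0.34 and for E2f8 -0.02 ± 0.34. With limma on log2(FPKM + 1) and Benjamini-Hochberg adjustment over all genes, 0 of 41 were called (0% of all 11252), with an adjusted p of 0.999993 for each of these 4 genes, and limma voom on recovered reads also called 0. At an unadjusted p under 0.05 there were 0 of 41 genes, against 0.32% of all genes with lower and 0.915% with higher values, and no gene had groups that did not overlap (1.32% lower and 2.98% higher over all genes). Values were lower in CD40LΔ5 for 32 of 41 genes, against 44.5% of all genes, but 36 of the 41 differences changed sign when some single library was left out.

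Between the sets of the table of means, most replication genes had lower values on the MUT side, and none passed the adjusted test. Values were lower for 35 of 41 genes (38% of all genes), with a median log2 difference, MUT minus WT, of -0.22 against 0.05 over all tested genes. The limma test called 0 of 41 at an adjusted p of 0.05 (0.0267% of all genes), and limma voom 0 of 41. At an unadjusted p under 0.05 there were 15 lower genes, or 36.6% of the 41, against 3.61% of all genes, and 1 higher gene against 9.39%. Groups did not overlap for 12 lower genes (4.79% of all genes) and 2 higher ones (12.1%). With median-ratio scaling the corresponding unadjusted counts were 17 lower, against 7.87% of all genes, and 0 higher, against 6.37%, and 16 lower genes had no overlap, against 11.8%, while over all genes the split moved from 406 lower and 1057 higher to 885 lower and 717 higher. Because whole preparations were sequenced, fewer dividing cells and less RNA per dividing cell cannot be told apart.

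WT replicate 2 carried much of the overlap between these sets. It was above at least 1 library averaged as WT for 27 of 41 genes and above all 3 of them for 16. Neither count was made over all genes. Without WT replicate 2 the unadjusted count of lower genes was 26 (5.84% of all genes), the count without overlap 30 (11% of all genes) and the smallest limma adjusted p 0.0910. The smallest adjusted p was 0.343 with all 6 libraries, and over all settings tried it ran from 0.0910 to 0.999819. The unadjusted count was 9 lower genes without WT replicate 3 (1.33% of all genes) and 9 without CD40LΔ5 replicate 2 (1.73% of all genes). Without CD40LΔ5 replicate 3 the groups did not overlap for 20 lower genes (12% of all genes). In the 4 libraries that both sources separate, though in opposite directions (WT replicates 1 and 2 against CD40LΔ5 replicates 1 and 3), the median log2 difference was -0.12, against 0.02 over all genes, and 1 gene was lower at an unadjusted p under 0.05 (0.58% of all genes). WT replicate 2 also had higher values of short genes in general, with a median of 0.11 above the gene mean for genes under 2000 bases and -0.08 for genes of 4000 bases or more. After the trend with gene length was removed, an alternative added after the data were seen, it was the highest library for 15 of 41 genes, the same count as without the removal. The count went from 10 to 22 for WT replicate 3 and from 13 to 2 for CD40LΔ5 replicate 1. Counts of the highest library were made for the replication genes alone.

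**Figure D2:**
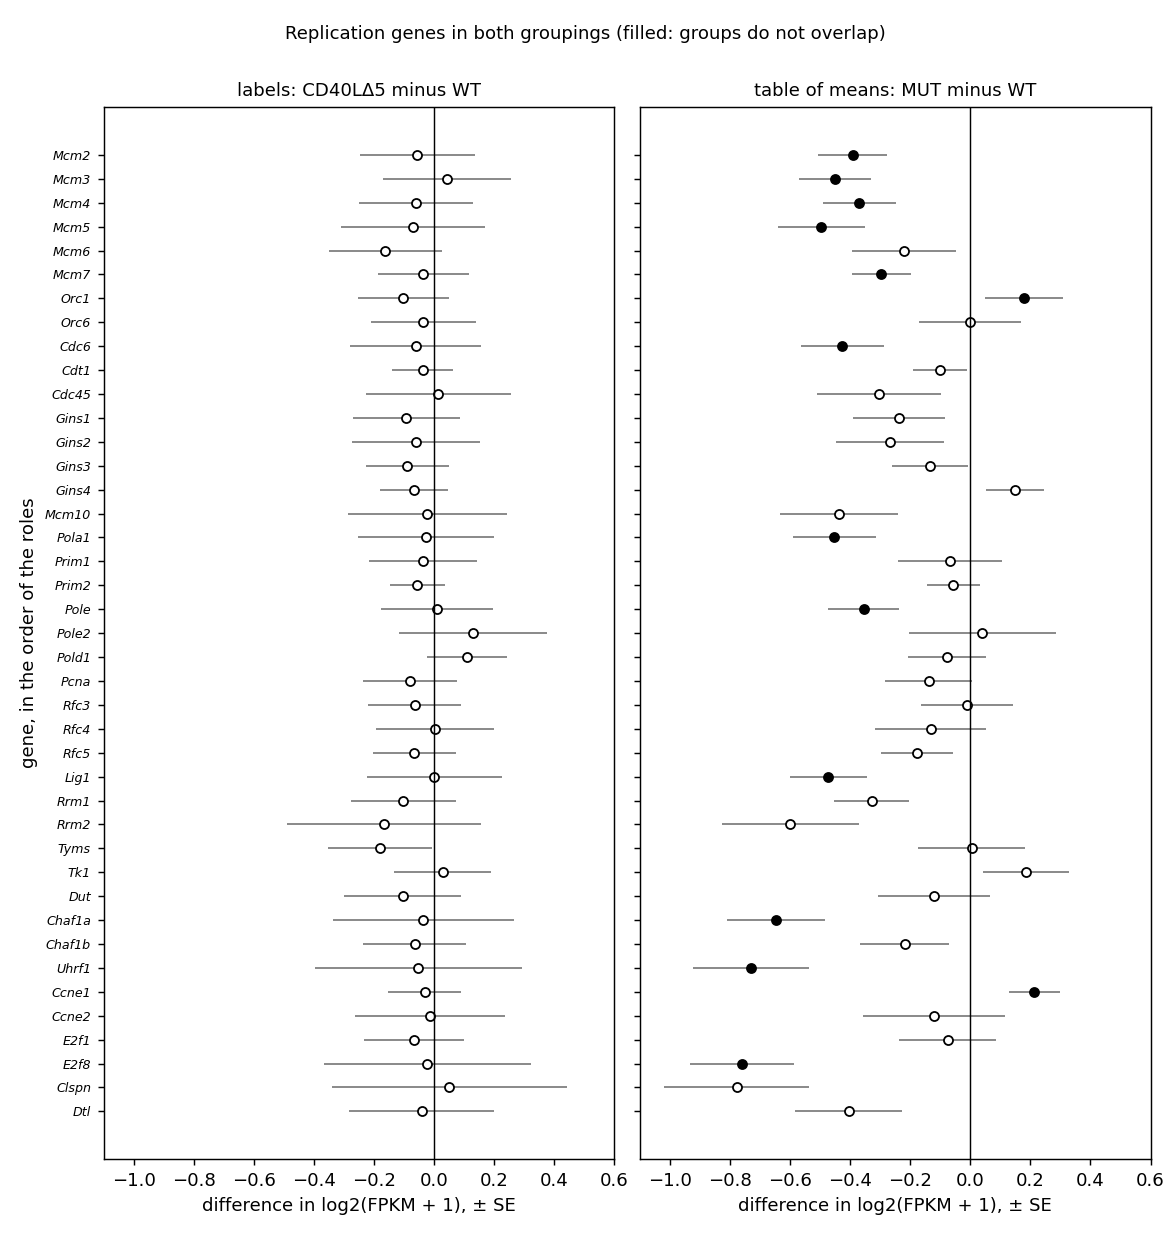
Log2 differences ± SE of the 41 tested replication genes (rows) by the labels (left, CD40LΔ5 minus WT) and by the table of means (right, averaged as MUT minus averaged as WT), with filled points where the groups do not overlap. The left panel stays between -0.18 and 0.13 with no filled point, and the right panel has 12 filled points below 0 and 2 above.

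In the following, values per library are given in the order of replicates 1, 2 and 3, log2 differences are those of the table of means (MUT minus WT), and adjusted p-values are from limma.

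Origin licensing genes included 6 of the 12 genes that were lower without overlap. MCM2-7 is the ring-shaped core of the replicative helicase. Mcm5 (ENSMUSG00000005410, chromosome 8, 75109528 to 75128439, plus strand) stood at 30.0, 37.6 and 48.4 FPKM (WT) and at 45.8, 26.4 and 38.8 FPKM (CD40LΔ5). The libraries averaged as MUT were all below the others, at 31.3 ± 5.72 against 44.3 ± 4.95 FPKM (SD, n = 3), a log2 difference of -0.50 ± 0.14 (SE; adjusted p = 0.344). Mcm3 stood at 25.7, 33.4 and 40.3 FPKM (WT) and at 41.0, 26.1 and 35.4 FPKM (CD40LΔ5), with a log2 difference of -0.45 ± 0.12 (adjusted p = 0.343). Mcm2, Mcm4 and Mcm7 were also lower without overlap, with log2 differences of -0.39, -0.37 and -0.30. Mcm6 was the exception in the ring, since WT replicate 2 held its highest value, 26.8 FPKM (log2 difference -0.22). Cdc6, the ATPase that loads the helicase with ORC, measured 2.25, 2.90 and 3.72 FPKM (WT) and 3.20, 1.84 and 3.42 FPKM (CD40LΔ5), a log2 difference of -0.43 ± 0.14 (adjusted p = 0.352). Its partner Cdt1 ranged from 26.3 to 32.6 FPKM with overlapping sets, which did not overlap under the other scalings or with the length trend removed. Of the origin recognition complex, Orc6 measured 12.1 ± 3.07 and 12.0 ± 1.29 FPKM in the 2 sets. Orc1 was higher without overlap, at 1.37 ± 0.224 against 1.09 ± 0.112 FPKM (adjusted p = 0.545), but its groups overlapped under both other scalings tried.

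With all 6 libraries, each of the 6 genes of helicase activation overlapped between the sets. CDC45 and the GINS tetramer turn the loaded MCM ring into the active helicase, and MCM10 assists its start. Mcm10 stood at 1.58, 3.17 and 3.75 FPKM (WT) and at 3.43, 1.94 and 2.73 FPKM (CD40LΔ5), with a log2 difference of -0.44 ± 0.20 (adjusted p = 0.399). WT replicate 2 again exceeded a library averaged as WT. Cdc45, Gins1, Gins2 and Gins3 had log2 differences of -0.30, -0.24, -0.27 and -0.13. Gins4, the fourth subunit, did not follow the others. It measured 24.1, 27.2 and 20.9 FPKM (WT) and 21.3, 22.8 and 24.4 FPKM (CD40LΔ5), a log2 difference of 0.15 ± 0.10 (adjusted p = 0.509). Its level was above those of the other GINS genes, which reached at most 7.75 FPKM, in every library, and its r with the mean of the other replication genes was -0.18. For Gins2, 67.3% of the annotated exonic bases are shared with Gse1 on the opposite strand. The library kit does not mark strand, so its counts are uncertain. Among the 42 genes, 15 share exonic bases with another gene, and 3 share over 50% of them.

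Among the polymerases, the catalytic subunits of alpha and epsilon were lower without overlap and that of delta was not. Pola1, which with primase lays down the primers, stood at 4.46, 5.51 and 6.89 FPKM (WT) and at 7.25, 3.80 and 5.72 FPKM (CD40LΔ5), with a log2 difference of -0.45 ± 0.14 (adjusted p = 0.349). Pole, the leading strand polymerase, had a log2 difference of -0.36 ± 0.12 (adjusted p = 0.355), and its sets overlapped once the length trend was removed (-0.34). Pold1, the lagging strand polymerase, measured 42.6, 33.8 and 44.8 FPKM (WT) and 45.6, 46.4 and 38.6 FPKM (CD40LΔ5). Its lowest library was WT replicate 2 and its highest CD40LΔ5 replicate 2, so its order of libraries was unlike that of Pola1 (log2 difference -0.08 ± 0.13, adjusted p = 0.808). The primase subunits Prim1 and Prim2 and the accessory subunit Pole2 had log2 differences of -0.07, -0.06 and 0.04, the last of which turned below 0 with median-ratio scaling and with the length trend removed.

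Pcna, the sliding clamp, was the most abundant of the replication genes (ENSMUSG00000027342, chromosome 2, 132249162 to 132253314, minus strand). It stood at 97.4, 138 and 125 FPKM (WT) and at 128, 99.9 and 112 FPKM (CD40LΔ5). Only WT replicate 1 and CD40LΔ5 replicate 2 were below 100 FPKM, and the highest value lay in WT replicate 2, which left a log2 difference of -0.14 ± 0.15 (adjusted p = 0.679). The clamp loader genes Rfc3, Rfc4 and Rfc5 had log2 differences of -0.01, -0.13 and -0.18. Rfc4 shares 12.65% of its exonic bases with Eif4a2 on the opposite strand, listed at 158 to 232 FPKM, so the counts of Rfc4 are uncertain. Lig1, the ligase that seals Okazaki fragments, measured 14.9, 19.0 and 23.3 FPKM (WT) and 23.8, 13.9 and 20.0 FPKM (CD40LΔ5). It was lower without overlap on the MUT side (log2 difference -0.47 ± 0.13, adjusted p = 0.343). Fen1, the flap nuclease of Okazaki fragments, was the only gene of the 42 under 1 FPKM. It held 0.197 to 0.416 FPKM, or 12 to 24 reads per library. In the GENCODE annotation of GRCm38, 84.2% of its exonic bases are shared with Gm10143, an antisense gene listed at 0.0862 to 0.247 FPKM, and with Tmem258, also on the opposite strand, so its level cannot be read from these counts.

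Of the nucleotide supply genes, both subunits of ribonucleotide reductase were lower at an unadjusted p under 0.05, with overlapping groups. The overlap depended on the scaling: Rrm1 had none with median-ratio scaling, without immunoglobulin genes in the total or with the length trend removed, and Rrm2 none with the first and last of these. Rrm1 stood at 25.8, 28.3 and 34.9 FPKM (WT) and at 33.5, 21.9 and 27.8 FPKM (CD40LΔ5), with a log2 difference of -0.33 ± 0.12 (adjusted p = 0.358). WT replicate 2 exceeded CD40LΔ5 replicate 3 by less than the spread within either set. Rrm2, the S phase subunit, measured 21.4 ± 7.90 against 31.7 ± 2.44 FPKM (log2 difference -0.60 ± 0.23, adjusted p = 0.360). The genes of thymidylate and dUTP metabolism did not follow. Tyms measured 3.67 ± 1.22 against 3.56 ± 0.124 FPKM, Tk1 15.8 ± 2.62 against 13.7 ± 1.83 FPKM and Dut 27.2 ± 8.33 against 28.9 ± 1.02 FPKM. Tyms and Dut were highest in WT replicate 2, at 5.03 and 36.8 FPKM, and so was Tk1, at 18.1 FPKM.

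Genes of chromatin behind the fork showed some of the largest differences. Uhrf1, which brings the maintenance DNA methyltransferase to newly copied DNA (ENSMUSG00000001228, chromosome 17, 56303321 to 56323486, plus strand), stood at 13.4, 19.1 and 27.8 FPKM (WT) and at 26.7, 11.8 and 20.2 FPKM (CD40LΔ5). The sets did not overlap, with 14.8 ± 3.87 against 24.9 ± 4.10 FPKM and a log2 difference of -0.73 ± 0.19 (adjusted p = 0.343). WT replicate 2 and CD40LΔ5 replicate 3, the nearest libraries, differed by less than the SD of either set. Chaf1a, the large subunit of chromatin assembly factor 1, measured 3.56, 5.00 and 7.83 FPKM (WT) and 6.90, 3.35 and 5.54 FPKM (CD40LΔ5), with a log2 difference of -0.65 ± 0.16 (adjusted p = 0.343). In the GENCODE annotation of GRCm38, 52.5% of its 8854 exonic bases are shared with Ubxn6 on the opposite strand. The gene length used for its FPKM was 3308 bases, so the shared part of the counted bases is not known. Its counts are therefore uncertain. Chaf1b, its partner subunit, had a log2 difference of -0.22 with overlapping sets.

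Of the 6 regulators of S phase entry and the fork checkpoint, 5 were lower on the MUT side and Ccne1 was higher. Their r with the mean of the other replication genes ran from 0.74 for Ccne2 to 0.998 for Dtl, and was -0.57 for Ccne1. E2f8, an atypical E2F that represses E2F targets (ENSMUSG00000046179, chromosome 7, 48866429 to 48881596, minus strand), had the smallest unadjusted p of all 41 genes. It stood at 2.11, 2.99 and 5.10 FPKM (WT) and at 4.72, 1.70 and 3.68 FPKM (CD40LΔ5). The means were 2.27 ± 0.656 FPKM on the MUT side and 4.50 ± 0.736 FPKM on the WT side, without overlap (log2 difference -0.76 ± 0.17, adjusted p = 0.343). E2f1, an activating E2F, measured 5.40, 7.49 and 5.96 FPKM (WT) and 7.44, 5.00 and 5.50 FPKM (CD40LΔ5), a log2 difference of -0.08 ± 0.16 (adjusted p = 0.855). Its sets overlapped with all 6 libraries, and did not without WT replicate 2. Ccne1, cyclin E1, was the only gene higher at an unadjusted p under 0.05, at 8.77, 9.72 and 8.10 FPKM (WT) and at 7.49, 10.01 and 8.58 FPKM (CD40LΔ5). Its log2 difference of 0.21 ± 0.09 (adjusted p = 0.371) stayed above 0 under the other scalings, where the sets overlapped. Ccne2, cyclin E2, held 1.71, 4.24 and 2.63 FPKM (WT) and 2.95, 2.16 and 3.02 FPKM (CD40LΔ5), with its highest value in WT replicate 2 (log2 difference -0.12 ± 0.24, adjusted p = 0.843). It shares 17.4% of its exonic bases with Ints8 on the opposite strand, listed at 11.8 to 14.5 FPKM, so the counts of Ccne2 are uncertain. Clspn, the claspin of the fork checkpoint, had a log2 difference of -0.78 ± 0.24 (adjusted p = 0.349), close to that of E2f8. With all 6 libraries its sets overlapped, except with median-ratio scaling. They did not overlap without WT replicate 2 or without CD40LΔ5 replicate 3. Dtl, which directs the destruction of CDT1, had -0.41 ± 0.18 (adjusted p = 0.394).

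**Figure D3:**
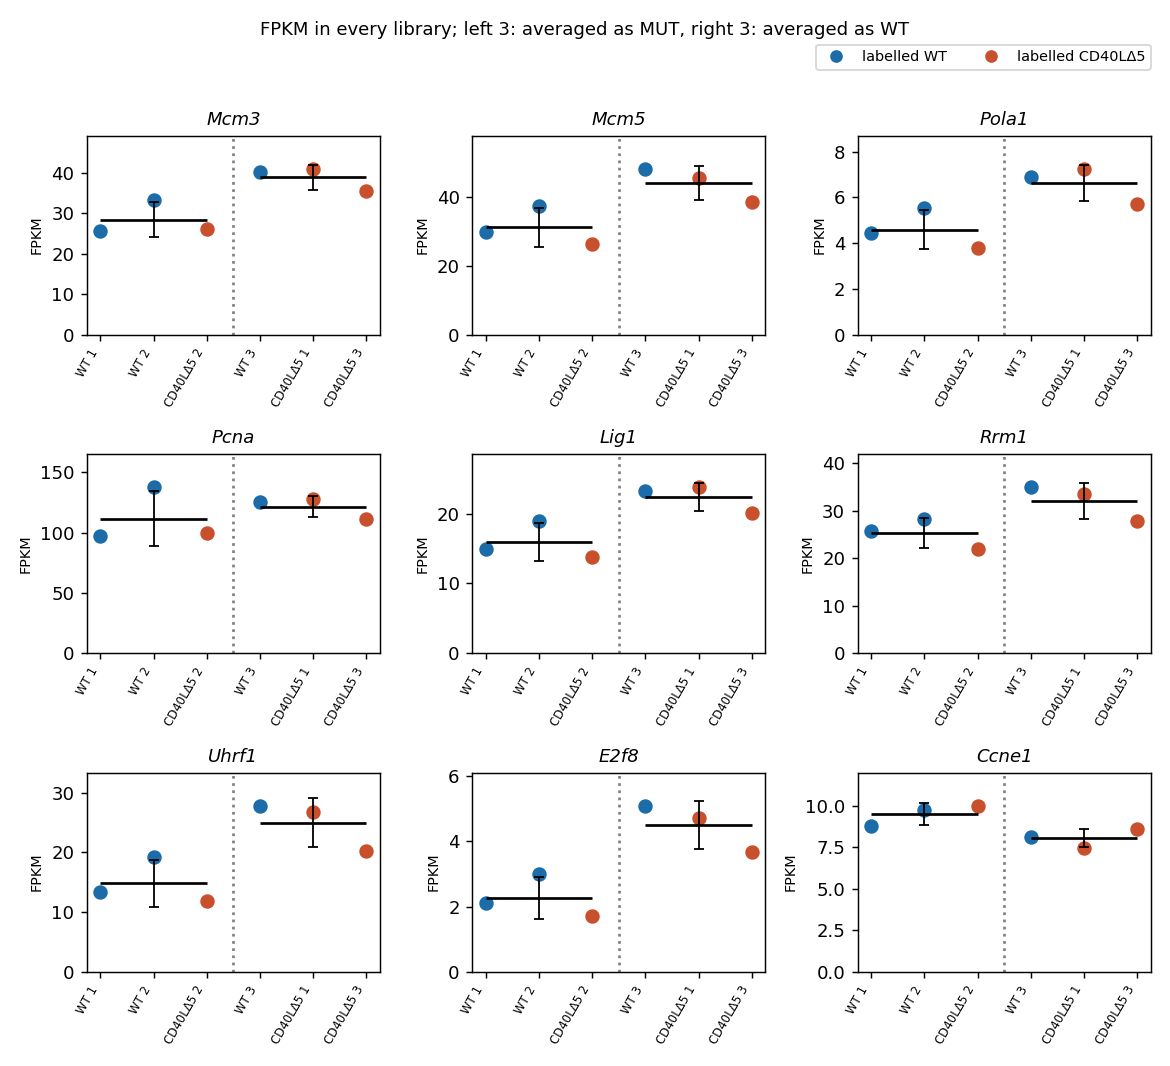
FPKM of 9 replication genes in every library (points, coloured by label), with the mean and SD of the 3 libraries averaged as MUT (left of the dotted line) and as WT (right). Mcm3, Mcm5, Pola1, Lig1, Uhrf1 and E2f8 have all left points below all right points, Pcna and Rrm1 overlap, and Ccne1 has all left points above.

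Further genes of the process had a median closer to 0 than that of the replication genes. Of 49 tested of the 50 in this list, 32 were lower on the MUT side (38% of all genes). The median log2 difference was -0.10, against 0.05 over all tested genes, and the range was -0.86 to 0.24. At an unadjusted p under 0.05, 8 were lower (3.61% of all genes) and 1 was higher (9.39%), and 0 passed the adjusted test (0.0267%). The smallest p belonged to E2f2, another activating E2F (24.3 ± 0.785 against 29.7 ± 1.83 FPKM), Dnmt1, the maintenance methyltransferase (29.3 ± 3.23 against 39.99 ± 4.89 FPKM), Ccna2, cyclin A2 (7.84 ± 3.07 against 14.5 ± 2.38 FPKM), and Ticrr, the origin firing factor treslin (0.971 ± 0.151 against 1.75 ± 0.302 FPKM). Each had limma adjusted p of 0.343 to 0.346. In the list of G1 cyclins, pocket proteins and the DREAM repressor complex, the median over 19 genes was 0.01. At an unadjusted limma p under 0.05, 2 of the 19 were higher (9.39% of all genes) and 1 was lower (3.61%). Sets did not overlap for 2 higher genes (12.1% of all genes) and 1 lower gene (4.79%). The counts of higher genes were thus near the shares over all genes. Cdkn1b, the cyclin-dependent kinase inhibitor p27, was higher at 40.1 ± 1.45 against 33.5 ± 1.91 FPKM (limma adjusted p = 0.349). Cdkn1a, the inhibitor p21, measured 2.13, 1.87 and 1.10 FPKM (WT) and 0.636, 2.85 and 1.63 FPKM (CD40LΔ5), higher without overlap on the MUT side (limma adjusted p = 0.352). Tfdp1, the dimer partner of E2F proteins, measured 27.1 ± 5.70 against 36.5 ± 5.60 FPKM, and Ccnd1, cyclin D1, 1.33 ± 0.312 against 0.748 ± 0.368 FPKM.

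Mitosis genes had larger differences than the replication genes in the same sets. All 18 were lower (38% of all genes), with a median of -0.72. At an unadjusted p under 0.05, 17 were lower (3.61% of all genes). Of the 18, 5 had sets that did not overlap (4.79% of all genes, lower) and 0 passed the adjusted test (0.0267%). Mki67, Tpx2, Bub1b and Top2a had the smallest p, with log2 differences of -1.099, -0.99, -0.78 and -0.95. The difference between the lists was not tested.

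**Figure D4:**
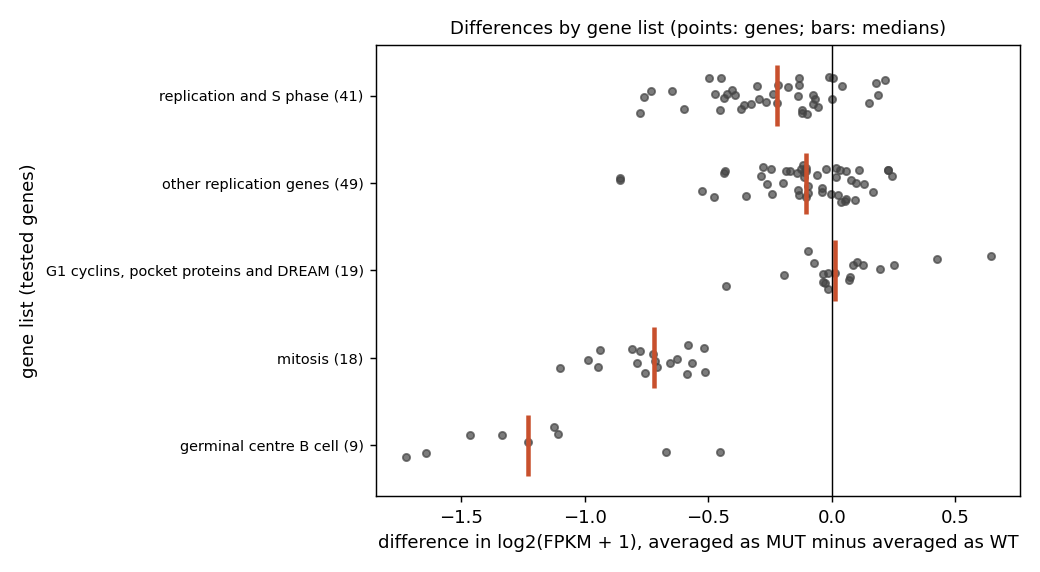
Log2 differences, averaged as MUT minus averaged as WT, of single genes (points) in 5 lists, with the list medians as bars. The medians are -0.22 for the replication genes, -0.10 for further replication genes, 0.01 for G1 genes, -0.72 for mitosis and -1.23 for germinal centre markers.

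Markers of several cell types varied between the libraries beside the replication genes. Summed over 9 germinal centre markers, the level was 40.5, 147 and 178 FPKM in WT and 189, 59.5 and 101 FPKM in CD40LΔ5, lowest in the same 2 libraries as the replication genes. Its most abundant genes were Bcl6, the germinal centre transcription factor, at 22.5 to 40.07 FPKM, and Rgs13 at 3.73 to 28.96 FPKM. The 7 plasma cell markers summed to 1349, 4986 and 4727 FPKM in WT and to 2074, 1125 and 4823 FPKM in CD40LΔ5, with Igj, the joining chain of secreted antibody, at 653 to 3627 FPKM. The 5 markers of immature granulocytes, cells that divide as well, summed to 10.9, 7.13 and 90.5 FPKM in WT and to 8.77, 10.7 and 84.1 FPKM in CD40LΔ5, and were thus high in WT replicate 3 and CD40LΔ5 replicate 3 alone. The 11 erythroid markers summed to 1094, 849 and 653 FPKM in WT and to 329, 1052 and 1231 FPKM in CD40LΔ5, lowest in CD40LΔ5 replicate 1. All 11 were higher on the MUT side, with a median log2 difference of 0.59 and overlapping sets. Over all tested genes 38% were lower between these sets, and the median log2 difference was 0.05. All 8 B cell markers were higher on the MUT side as well (median 0.10). The 6 T cell markers summed to 18.6, 19.6 and 12.2 FPKM in WT and to 14.5, 18.7 and 13.8 FPKM in CD40LΔ5. All 5 that were tested were higher on the MUT side without overlap (12.1% of all genes), with a median log2 difference of 0.33. The 5 markers of natural killer cells summed to 45.7, 39.3 and 25.1 FPKM in WT and to 18.5, 49.3 and 29.4 FPKM in CD40LΔ5. All 5 were higher on the MUT side (median 0.51), and Gzma, a granzyme, had a log2 difference of 1.31 and a limma adjusted p of 0.0677, smaller than that of any replication gene with all 6 libraries. The 8 macrophage markers summed to 277, 128 and 73.1 FPKM in WT and to 92.8, 112 and 119 FPKM in CD40LΔ5, and all 8 were higher on the MUT side (median 0.69). Mature neutrophil markers, 6 in all, summed to 50.6 to 546 FPKM, and 5 of them were lower on the MUT side. No listed marker found in the table was at 0 in any library. The part of any of these cells in the levels of the replication genes was not tested.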

How the data were processed

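Tables of FPKM by gene, with the gene lengths used and a further table of group means, were deposited by the authors. Per the labels' protocols, a TruSeq kit was used on 1 µg of RNA per library. STAR, DESeq2, CASAVA 1.8.2 and the build mm9 appear in the submitters' processing notes, where no step is assigned to them, yet 24919 of 34490 matched genes have exactly the GRCm38 start and end of GENCODE M21. The counting tool is not given in the sources used here. FPKM times gene length gave whole reads for 100% of values (tolerance 0.01 reads), and the worth of 1 read in a gene of 1 kb was 0.0359 to 0.0411 FPKM.

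Groups came from the sample labels, or from the 3 libraries whose mean equals a column of the table of means (to within 3.33e-08 FPKM). The two-sided test was limma 3.58.1 in R 4.3.3 (eBayes with a trend) on log2(FPKM + 1), which understates changes of low genes, over the 11252 genes whose mean reached 1 FPKM, adjusted after Benjamini-Hochberg, at a threshold of 0.05. The procedure was also run on simulated data, with noise drawn independently for each gene. Those data lacked the shared variation between libraries described above, and no result here rests on them. Pseudocounts, filters, scalings, the variance trend, limma voom on recovered reads, a replicate block and leaving out each library were alternatives, and removal of the length trend (loess, span 0.3) was added after seeing the data.

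The members, lists and rules were chosen with earlier results of these data known. Values in every library are printed for the most abundant gene and the gene of smallest p of each of 7 roles and for Ccne1, Ccne2, E2f1, E2f8, Cdc6 and Mcm10, and the other members by differences, means or ranges. From each of the 3 further gene lists the 4 genes of smallest p are named. Each cell type list is given by its sum, with its most abundant genes for some. Values of Rrm2, Tyms, Tk1, Dut, Orc1 and Clspn were chosen after they were seen.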

Additional observations from a re-analysis of the deposited data

How the results depend on the processing

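No replication gene passed the adjusted test in either grouping under any setting. The median of the 41 genes moved from its main value by less than the median within-group SD of single genes under every setting. That SD describes single genes, so it does not show that the median is stable. When 1 library was left out, the median lay between -0.19 and 0.06 by the labels, with a change of sign. By the table of means it lay between -0.39 and -0.15. By the labels, leaving out 1 library gave 0 to 2 lower and 0 to 1 higher genes without overlap (3.70% to 6.49% and 4.62% to 16.1% of all genes), and the log2 difference ran from -0.24 to 0.15 for Mcm5, -0.22 to 0.025 for Pcna, -0.30 to 0.26 for Uhrf1 and -0.25 to 0.29 for E2f8. By the table, leaving out 1 library gave 9 to 26 lower and 0 to 3 higher genes at an unadjusted p under 0.05, and 12 to 30 lower and 2 to 4 higher genes without overlap. Over all genes the same settings gave 1.33% to 5.84% lower and 3.63% to 12.4% higher at that p, and 6.35% to 12% lower and 13.7% to 27.3% higher without overlap. Pold1 ran from -0.17 to 0.051, Ccne2 from -0.40 to 0.074 and E2f1 from -0.23 to 0.034. In the 4 libraries that both sources separate, 1 gene was lower and 0 were higher at that level. The 1 higher gene at that level became 0 with median-ratio scaling, without immunoglobulin genes in the total, with voom and with the length trend removed. The 2 higher genes without overlap became 1 at a mean of at least 5 FPKM and 0 with either other scaling or with the length trend removed. The causes were not tested. E2F matches were present in 10 genes with the 250 upstream bases alone, against 16 in the whole window.

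Deviations of same-numbered libraries from the means of their labels correlated at -0.38, 0.06 and 0.38. WT replicate 1 correlated best with CD40LΔ5 replicate 2 (0.56), and WT replicates 2 and 3 with the CD40LΔ5 libraries of their own number. Such deviations sum to 0 within a label, so they cannot settle whether the replicate numbers pair the libraries. With the replicate block, 0 of 41 genes were called and 0 had an unadjusted p under 0.05, while over all genes the block gave 50 lower and 160 higher at that level against 36 and 103. No paired analysis was possible by the table of means because its sets share only 1 replicate number.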
